A study of Mus musculus with 4 samples.

Results

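The comparison described here sets the pair of arrays titled replicate 2 against the pair titled replicate 1 in a study of immortalized mouse embryonic fibroblasts, so it takes in all 4 arrays of the series, 2 for each number. Both numbers hold 1 array of PTIP -/- cells and 1 of PTIP +/+ cells. All cells carry Ptip (Paxip1) alleles flanked by loxP sites on both chromosomes. The PTIP -/- cells received a retrovirus with Cre recombinase, which cuts out the flanked DNA, and the PTIP +/+ cells the vector without it, and all cells were selected with puromycin. The arrays were chosen by the number in their titles and by no measured value. Genotype was kept as a block in the main test, but not in every alternative setting. The labels leave unsaid what a number stands for, be it a culture, an embryo, an infection or a day, and which part of the embryo the fibroblasts came from, so the p-values measure only the spread between these RNAs, which may be technical.

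Fibroblasts keep a record of the body region they came from in their transcription factors. Hox genes lie in 4 clusters, and the genes at the 5' end of the HoxA and HoxD clusters (the high paralogue numbers) act in the outer parts of the limb and at the tail end of the trunk, while mesenchyme of the face forms from neural crest cells that hold no Hox protein and use factors such as the Alx and Pax families. Regional fibroblasts also differ in the collagens and other matrix proteins they secrete and in the growth factors and antagonists they release. PTIP itself is a subunit of the MLL3 and MLL4 complexes, which methylate histone H3 at enhancers.

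The deposited values are linear array signals, with 1 signal for each probe set and a trimmed mean of 500.0 on each array. Each of 18193 genes was read from its brightest probe set, and 12509 genes with a mean signal of at least 47.68 were tested. Throughout, "the filter level" is this signal, and the 2 signals of a replicate number are given with PTIP -/- first and PTIP +/+ second. Where 2 pairs of signals are set against each other, replicate 1 comes first. Array medians ran from 76.0 to 98.2, and 34.1% to 40.5% of probe sets lay below the filter level on an array. The targeted gene matched its labels: Paxip1 read 43.5 and 1029.5 on the replicate 1 arrays and 74.6 and 1040.1 on the replicate 2 arrays. Vim, which encodes the filament protein vimentin, was bright on every array, at 30992 and 31041 in replicate 1 and 33294 and 39292 in replicate 2. Of the 16 tested members of a list of general fibroblast markers, 15 lay above the filter level on all 4 arrays. Some of them were dim in replicate 2, such as Dpt at 159.8 and 91.9.

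The replicate number separated the arrays more than the genotype did. Over the tested genes, which are no independent replicates, the log2 signals correlated at 0.969 between the replicate 1 arrays and 0.945 between the replicate 2 arrays, but at 0.904 between the PTIP -/- arrays and 0.883 between the PTIP +/+ arrays. A difference of 2-fold or more between the numbers was measured for 1851 genes in PTIP -/- and 2218 genes in PTIP +/+. The same size of difference between the genotypes was measured for 779 genes within replicate 1 and 1487 within replicate 2. The difference between the numbers in PTIP -/- and that in PTIP +/+ share no array, and across the 12509 genes they correlated at 0.686 (Pearson) and 0.562 (Spearman). In both genotypes, 546 genes (4.36%) were at least 2-fold higher and 413 genes (3.3%) at least 2-fold lower in replicate 2, whereas 53 genes differed by 2-fold in opposite directions. The signals of the 2 numbers did not overlap for 25.5% of tested genes with more signal in replicate 2 and for 29.7% with less, so a lack of overlap is common and is given below as a description.

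With limma's moderated test, genotype as a block and Benjamini-Hochberg adjustment over the 12509 genes, 62 genes (0.496%) rose and 18 genes (0.144%) fell in replicate 2 at an adjusted p under 0.05. In all that follows, "rose" and "fell" are used for these genes alone. The smallest difference among them was 2.80 on the log2 scale, the smallest adjusted p was 0.027, and all 80 were at least 2-fold different in both genotypes. At an unadjusted p under 0.05 there were 1394 genes higher and 1460 lower. The fit has 1 residual degree of freedom among the arrays, and its error is how far the difference between the numbers itself differed between the genotypes, so a large difference of unequal size in the 2 genotypes can miss the threshold. The numbers passing ran from 0 to 558 higher and from 0 to 335 lower over the settings tried. With 4 arrays, the smallest two-sided p that an exact permutation test ignoring genotype could give for 1 gene is 0.333. Swaps within a genotype alone allow fewer arrangements, so that their smallest p is higher.

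**Figure D1:**
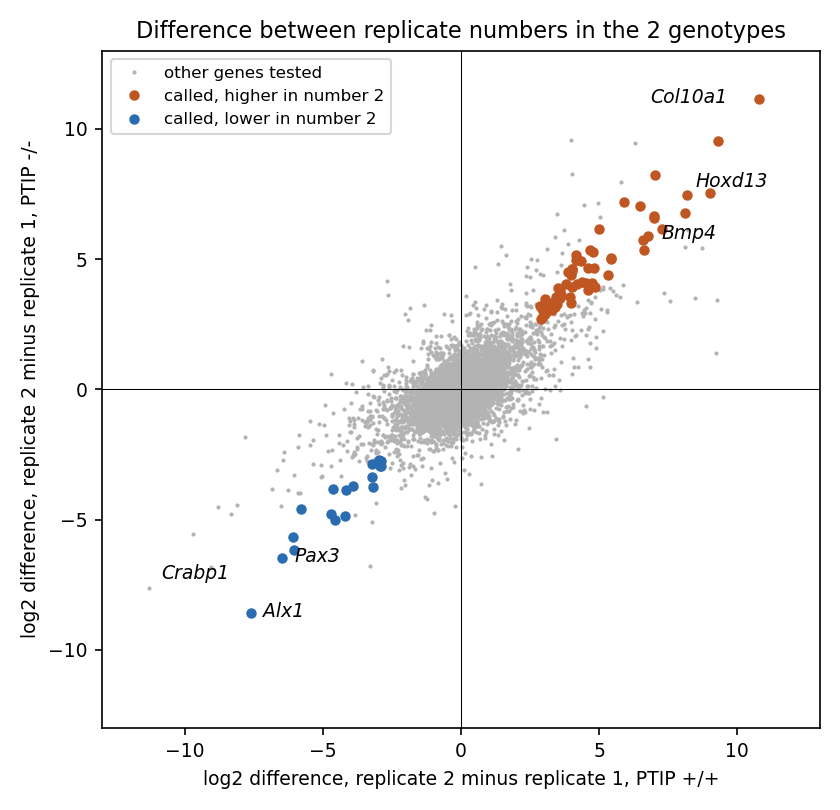
Each point is 1 of the 12509 tested genes, plotted by its log2 difference, replicate 2 minus replicate 1, in PTIP +/+ (horizontal axis) and in PTIP -/- (vertical axis). The 62 genes that rose (orange) and the 18 that fell (blue) lie along the diagonal, far from the centre, and Crabp1, which missed the threshold, lies above it at -11.31 in PTIP +/+ and -7.62 in PTIP -/-.

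Genes at the 5' ends of the HoxA and HoxD clusters were brighter in replicate 2, most of them dim or below the filter level in replicate 1. Hoxd13, the last HoxD gene, which patterns the digits, read 42 and 26.3 on the replicate 1 arrays and 7369.9 and 7644 on the replicate 2 arrays. Both replicate 1 signals lay below the filter level and both replicate 2 signals far above it. Raised to the filter level, the replicate 1 signals make Hoxd13 at least 157.4-fold higher in replicate 2 (log2 difference 7.82, SE 0.27, adjusted p = 0.0412). Hoxd10, a neighbour in the same cluster, rose from 7.5 and 8 to 990.4 and 712, at least 17.6-fold (log2 6.76, SE 0.25, adjusted p = 0.0412). Between these genes, Hoxd11 read 4.1 and 16.2 in replicate 1 and 589.7 and 506 in replicate 2 (adjusted p = 0.0732) and Hoxd12 18.7 and 30 against 116 and 84.6 (adjusted p = 0.118). Neither passed, although the 2 numbers did not overlap for any gene from Hoxd8 to Hoxd13. Hoxd8 read 78.7 and 61.9 in replicate 1 and 294 and 970.0 in replicate 2 (adjusted p = 0.131). Hoxd9 did not reach the mean signal needed for testing, at 7.5 and 12.6 in replicate 1 and 211 and 99.9 in replicate 2. At the other end of the cluster Hoxd1 and Hoxd3 read at most 63.2 on every array.

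The HoxA cluster differed in the same way. Hoxa13, the HoxA partner of Hoxd13 in the hand and foot plate, rose from 49.5 and 62.2 to 395 and 538, 8.3-fold (log2 3.05, SE 0.20, adjusted p = 0.0448). Hoxa10, which acts in the hindlimb and the reproductive tract, rose from 20.1 and 12.9 to 1189 and 1399, at least 27.1-fold (log2 6.32, SE 0.30, adjusted p = 0.0412). A dim second probe set of Hoxa10 differed by 0.72, and the average of both by 3.52, which did not pass (adjusted p = 0.0661). Hoxa11, needed for the forearm and lower leg, was 10.5-fold higher without passing, at 106 and 53.6 in replicate 1 and 758 and 827 in replicate 2 (adjusted p = 0.0736). At its brightest probe set Hoxa9 differed less, from 313 and 162 to 577 and 664 (adjusted p = 0.164). A second Hoxa9 probe set differed far more, from 10.2 and 1.5 to 2031.0 and 1600.0 (log2 8.85). Hoxa5, nearer the other end, read 220.2 and 218 in replicate 1 and 244 and 198 in replicate 2, where the 2 numbers overlap. A dimmer Hoxa5 probe set read 42.7 and 53.7 against 140.3 and 78.6, without overlap. Hoxa3 read 152 and 83.9 against 89.8 and 74.2 at its brightest probe set, where the numbers overlap. Hoxa2, Hoxa4 and Hoxa7 stayed below the filter level on all 4 arrays.

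The HoxB and HoxC clusters were dim in both numbers. The brightest signal of any of the 9 HoxB genes was 98.8 (Hoxb4, in the PTIP +/+ replicate 2 array), and that of the 7 HoxC genes 121.7 (Hoxc6, in the PTIP -/- replicate 1 array). Hoxb4 read 72.5 and 48.9 in replicate 1 and 31.3 and 98.8 in replicate 2, and Hoxc6 122 and 98.8 against 79.9 and 97.3. The numbers overlap for Hoxb4, and Hoxc6 differed by 1.24-fold on average. No other gene of these clusters had a mean signal high enough to be tested. Of the 33 Hox genes on the array, 13 were tested, 4 rose and 0 fell, beside 0.496% and 0.144% of all genes tested. None of the tested Hox genes was 2-fold lower in both genotypes. A gene bright in only 1 number had to differ between the numbers to reach the mean signal at which genes were tested, here and in every list below, so such counts describe the lists and are no test of them. For every list, the shares of all tested genes to set beside its counts are 0.496% that rose and 0.144% that fell. At least 2-fold higher in both genotypes were 4.36% of all tested genes, and at least 2-fold lower 3.3%.

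**Figure D2:**
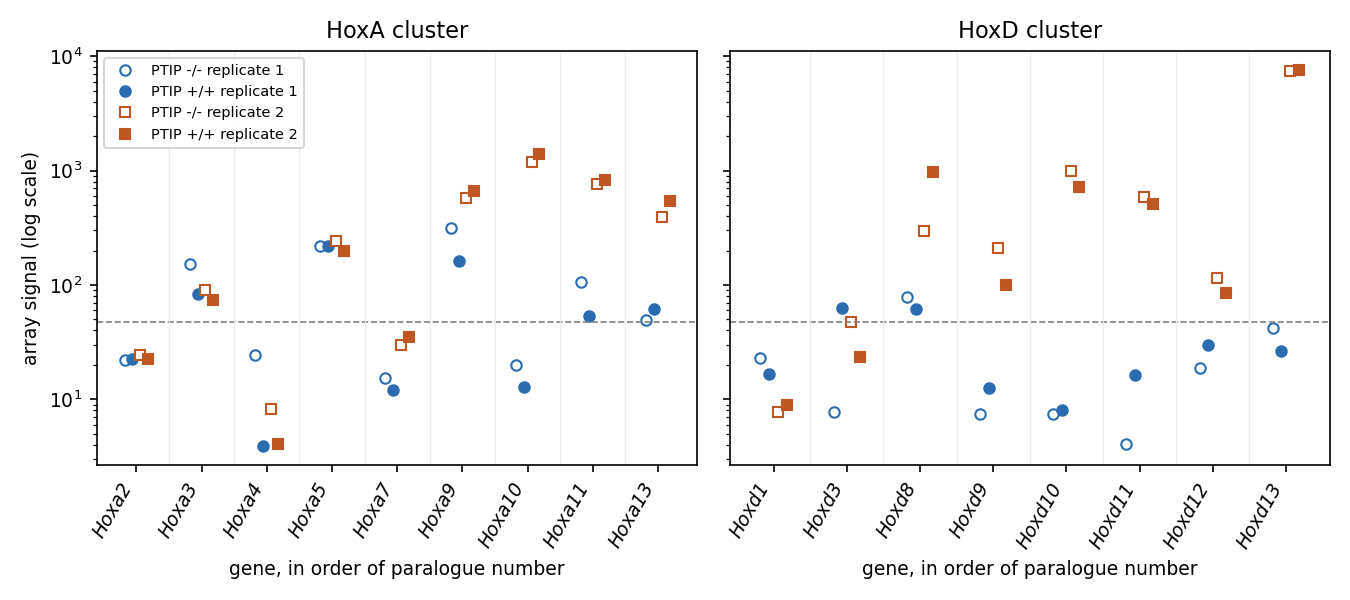
Signals (log axis) of the brightest probe sets of the HoxA and HoxD genes on the 4 arrays, in order of paralogue number. The filter level of 47.68 is a dashed line. From Hoxa9 and Hoxd8 upward both replicate 2 arrays (squares) read above both replicate 1 arrays (circles), while Hoxa2 to Hoxa5 and Hoxd1 to Hoxd3 show no such gap in that direction.

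Among limb factors outside the Hox clusters, 1 rose and 1 fell of 20 tested, beside 0.496% and 0.144% of all genes. In both genotypes 3 were at least 2-fold higher and 3 at least 2-fold lower, beside 4.36% and 3.3%. The median difference was -0.44 beside -0.05 for all genes. Lhx9, a LIM-domain factor of limb mesenchyme and the gonad, rose from 471 and 582 to 4253 and 4798, 8.63-fold (log2 3.11, SE 0.20, adjusted p = 0.0444). Shox2, which shapes the upper limb, palate and jaw joint, fell from 995 and 755 to 30.4 and 31.7, at least 18.2-fold (log2 -4.80, SE 0.23, adjusted p = 0.0412), and both replicate 2 signals lay below the filter level. Tbx5, the factor that starts the forelimb and also works in the heart, read 14.7 and 11.8 in replicate 1 and 224 and 416 in replicate 2 (adjusted p = 0.059). Lmx1b, which sets the back of the limb, read 50.1 and 4.8 against 657 and 785 (adjusted p = 0.121), but its second probe set was dim on every array and did not repeat this. On the other side, Hand2, an upstream factor of the posterior limb and the lower jaw, read 3454 and 2162 in replicate 1 and 407 and 20.9 in replicate 2 (adjusted p = 0.131). Zfp503, a zinc finger repressor, read 2389 and 1816 against 589.7 and 224 (adjusted p = 0.0899). None of these 4 genes passed, though the numbers did not overlap for any of them.

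Factors of facial and neural crest mesenchyme differed in both directions. Of 28 tested, 1 rose and 2 fell, beside 0.496% and 0.144% of all genes. In both genotypes 6 were at least 2-fold higher and 4 at least 2-fold lower, beside 4.36% and 3.3%. The median difference was 0.19. Alx1, a homeodomain factor needed for the middle of the face, read 992 and 793 in replicate 1 and 2.6 and 4 in replicate 2. It fell by at least 18.6-fold (log2 -8.10, SE 0.32, adjusted p = 0.0412), with both replicate 2 signals far below the filter level. Pax3, a factor of the neural crest, the dorsal neural tube and muscle precursors, fell from 1765 and 834 to 20.1 and 9.3, at least 25.4-fold (log2 -6.47, SE 0.20, adjusted p = 0.0394). Lhx8, a LIM factor of the first pharyngeal arch, read 2067 and 1484 in replicate 1 and 18 and 2.8 in replicate 2 without passing (adjusted p = 0.0565). Its partner gene in the arch, Lhx6, chosen after its values were seen, was lower to a lesser degree, at 304 and 234 against 79.4 and 44.9 (adjusted p = 0.0738).

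Other genes of the same list stood higher in replicate 2. Msx1, a homeodomain factor of the teeth, face and limb tip and a target of BMP signalling, rose from 173 and 216 to 3605 and 8578, 28.7-fold (log2 4.85, SE 0.31, adjusted p = 0.0448). Averaged with its second probe set, the difference was 4.10 and did not pass (adjusted p = 0.0609). The AP-2 genes, which act in crest, skin and limb bud, were both higher without passing: Tfap2a read 102 and 50.5 in replicate 1 and 855 and 1094 in replicate 2 (adjusted p = 0.0738), and Tfap2b 2.6 and 25.6 against 1816 and 2001 (adjusted p = 0.0738). Tfap2b was thus below the filter level on both replicate 1 arrays and at 1816 or more on both replicate 2 arrays. Msx2, Foxc1 and Prrx2, chosen after their values were seen, were also higher on both replicate 2 arrays: Prrx2, a broad mesenchymal factor, read 1083 and 2271 in replicate 1 and 4589 and 7137 in replicate 2 (adjusted p = 0.0841). By contrast Prrx1, its close relative, and Tbx15, a factor of limb and trunk skin, were bright in both numbers, Prrx1 at 4930.2 and 6139.9 against 3998 and 5894 and Tbx15 at 1133 and 964 against 945 and 796. The list of body wall, splanchnic and kidney factors held 8 tested genes, of which 0 passed in either direction and 0 were 2-fold different in both genotypes.

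**Figure D3:**
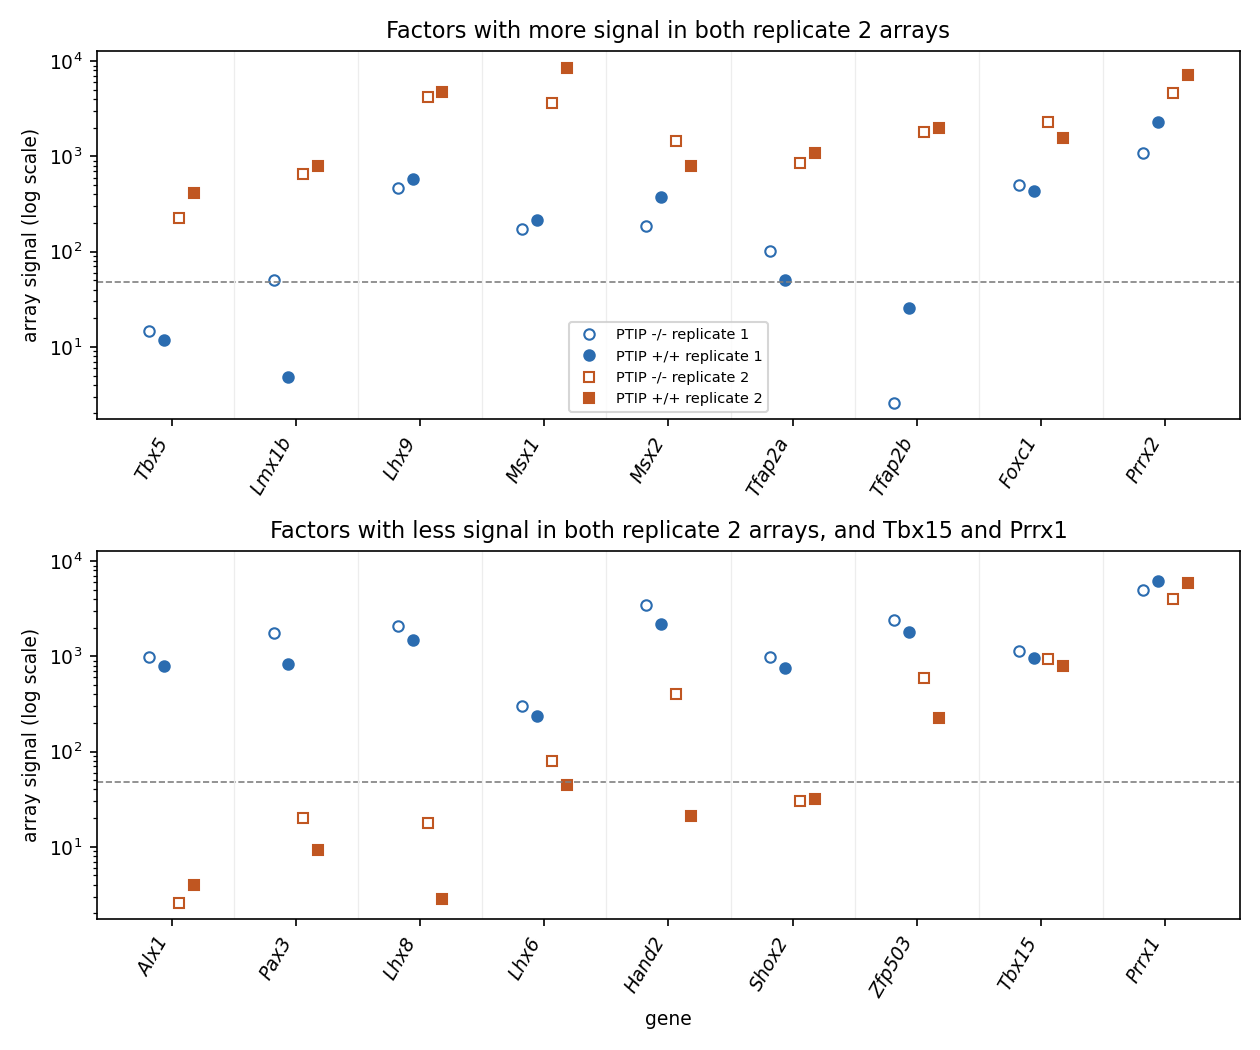
Signals (log axis) on the 4 arrays of limb, facial and crest factors, replicate 1 as circles and replicate 2 as squares, with the filter level of 47.68 as a dashed line. In the upper panel both squares lie above both circles for each gene; in the lower panel both squares lie below both circles from Alx1 to Zfp503, and the signals of Tbx15 and Prrx1 lie close together.

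The promoters of 4 of the 6 genes named as markers of this comparison, and of Shox2, are shown. No window was available for the remaining markers, Alx1 and Pax3. The genes shown had some of the largest differences between the numbers and represent both directions. Hoxd13, Bmp4 and Col10a1 were brighter in replicate 2, and Crabp1 and Shox2 in replicate 1. Each window is the run of 250 bases just upstream of the RefSeq start on assembly GRCm38.p6, written 5' to 3' on the gene's own strand, with every CG dinucleotide in capitals. The windows are Hoxd13 at chr2:74667975-74668224 (plus strand), Bmp4 at chr14:46390670-46390919 (minus strand), Col10a1 at chr10:34389731-34389980 (plus strand), Crabp1 at chr9:54764498-54764747 (plus strand) and Shox2 at chr3:66981772-66982021 (minus strand).
Hoxd13: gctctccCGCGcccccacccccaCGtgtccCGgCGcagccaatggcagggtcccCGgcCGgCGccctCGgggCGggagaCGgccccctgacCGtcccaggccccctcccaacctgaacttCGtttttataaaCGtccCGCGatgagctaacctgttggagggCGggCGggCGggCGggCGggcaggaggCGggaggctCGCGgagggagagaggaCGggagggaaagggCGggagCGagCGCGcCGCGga
Bmp4: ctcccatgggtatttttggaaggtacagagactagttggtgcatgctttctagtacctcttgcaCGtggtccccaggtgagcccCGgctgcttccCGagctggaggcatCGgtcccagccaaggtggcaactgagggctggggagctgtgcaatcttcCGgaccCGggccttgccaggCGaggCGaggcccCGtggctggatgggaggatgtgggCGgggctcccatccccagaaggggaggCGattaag
Col10a1: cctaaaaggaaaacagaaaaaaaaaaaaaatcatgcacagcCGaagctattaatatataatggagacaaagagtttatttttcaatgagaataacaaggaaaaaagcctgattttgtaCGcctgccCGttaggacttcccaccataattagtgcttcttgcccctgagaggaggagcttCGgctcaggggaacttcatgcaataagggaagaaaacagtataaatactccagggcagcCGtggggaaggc
Crabp1: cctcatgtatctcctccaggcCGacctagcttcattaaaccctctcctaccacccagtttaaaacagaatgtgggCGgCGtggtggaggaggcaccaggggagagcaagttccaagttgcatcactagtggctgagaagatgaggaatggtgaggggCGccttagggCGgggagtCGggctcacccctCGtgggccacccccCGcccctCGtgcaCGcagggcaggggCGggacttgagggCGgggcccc
Shox2: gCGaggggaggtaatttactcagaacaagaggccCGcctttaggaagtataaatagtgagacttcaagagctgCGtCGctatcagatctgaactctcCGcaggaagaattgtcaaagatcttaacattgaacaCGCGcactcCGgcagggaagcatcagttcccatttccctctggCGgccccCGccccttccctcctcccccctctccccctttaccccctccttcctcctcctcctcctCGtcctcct
The Hoxd13 window held 31 CG dinucleotides, a number reached by 5.19% of the 32851 windows of this length in the RefSeq table, while the Col10a1 window held 5, reached by 55.6%. Bmp4 and Shox2 held 11 each (reached by 35.6%) and Crabp1 12 (reached by 33.5%), and the median of all windows was 6. The letters TATAAA, searched on both strands, occurred in the Hoxd13, Col10a1 and Shox2 windows and in 12.4% of all windows. Windows could be matched for 48 of the 62 genes that rose, with a median of 16.5 CG, for 11 of the 18 that fell, with a median of 11, and for 10117 of the tested genes, with a median of 17.0. These counts describe the letters of the reference, and no methylation or binding was measured here.

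Cartilage genes gave the largest single difference among the genes that rose. Col10a1, the collagen of cartilage cells that enlarge before bone forms, read 8 and 3.3 on the replicate 1 arrays and 18330.3 and 5786 on the replicate 2 arrays. It rose by at least 216.0-fold (log2 difference 10.97, SE 0.22, adjusted p = 0.027). Col11a1, a fibrillar collagen of cartilage, rose from 64.1 and 292 to 966 and 4752, 15.7-fold (log2 3.97, SE 0.20, adjusted p = 0.0412), and on each number the PTIP +/+ array was the brighter. Of 11 cartilage genes tested, 7 were higher and 4 lower. Their median difference was 0.67, and it was 0.23 within PTIP -/- and 0.22 within PTIP +/+. Col10a1 and Col11a1 rose, 0 fell, and 4 were at least 2-fold higher in both genotypes, beside 0.496%, 0.144% and 4.36% of all genes. The other pair were Sox6, a cartilage transcription factor, at 89.7 and 37.8 in replicate 1 and 442 and 921 in replicate 2 (adjusted p = 0.125), and Matn3, a cartilage matrix protein, at 58.9 and 51.4 against 151 and 124 (adjusted p = 0.103). The remaining 9 of the 20 listed genes were not tested, 5 of them being below the filter level on all 4 arrays. Of 5 bone genes tested, none passed or was 2-fold different in both genotypes, and Col1a1, the main bone and skin collagen, read 20897 and 25065 against 23821 and 33211.

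Other mesenchymal lineages differed through single genes. Tnmd, a tendon membrane protein, read 1359 and 1896 in replicate 1 and 48.8 and 5.8 in replicate 2 (adjusted p = 0.102), while Tnc, the brightest gene of the tendon list, read 15546 and 11189 against 9097 and 7839 (adjusted p = 0.209). Acta1, the actin of skeletal muscle, went the other way, from 153 and 176 to 8870.4 and 1850.3 (adjusted p = 0.102), and Actg2, a smooth muscle actin, was 6.79-fold lower in replicate 2, at 14633 and 13614 against 2731 and 1584 (adjusted p = 0.0669). Acta2, the actin that marks contractile fibroblasts, was near the top of the signal range on every array, at 31131 and 32268 in replicate 1 and 32785 and 34833 in replicate 2. Fabp4, a fatty acid carrier of fat cells, read 16.1 and 60.2 in replicate 1 and 4029.7 and 3352 in replicate 2 (adjusted p = 0.0618). Pparg, the master factor of fat cells, read 3.9 and 143 against 36 and 750.0 (adjusted p = 0.0736), and both PTIP -/- signals lay below the filter level. Scd1, the brightest gene of the fat cell list, read 3736.7 and 2730.7 against 3079.9 and 3950.5, where the numbers overlap. Of the 6 fat cell genes tested, 3 were higher and 3 lower, with a median difference of -0.42. None of these genes passed. In total 0 genes of the tendon, skeletal muscle, smooth muscle and fat lists rose or fell.

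Several surface proteins used to isolate fibroblasts were dimmer in replicate 2. Thy1, a surface glycoprotein, read 14823 and 16080.1 in replicate 1 and 1501 and 239 in replicate 2, 25.8-fold lower on average (adjusted p = 0.11). Pdgfra, the PDGF receptor of most mesenchyme, read 3563 and 5010.1 against 174 and 583, 13.3-fold lower (log2 -3.73, SE 0.38, adjusted p = 0.0736). For both genes the lowest replicate 1 signal was above the highest replicate 2 signal. Vcam1, an adhesion molecule, was 4.59-fold lower (adjusted p = 0.0666), Dpt, a dermal matrix protein, 6.83-fold lower (adjusted p = 0.0666) and Cd44, the hyaluronan receptor, 2.57-fold lower (adjusted p = 0.101). Cd55, a complement regulator, was the 1 gene of this list at least 2-fold higher in both genotypes, at 24.9 and 24.5 in replicate 1 and 140.3 and 162 in replicate 2 (adjusted p = 0.0569). Of 16 tested, 0 passed and 5 were 2-fold lower in both genotypes, beside 3.3% of all genes. The median difference was -0.09, which became 0.10 with arrays centred on their medians.

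Markers of other cell types were mostly dim in both numbers, with exceptions. Over the whole lists, the summed signal of 12 blood and macrophage genes was 1579 and 1178 in replicate 1 and 1072 and 884 in replicate 2, that of 11 endothelial genes 738 and 492 against 868 and 799, that of 15 epithelial genes 2363 and 1798 against 1311 and 1752, that of 12 Schwann and neural genes on the array 1148 and 1145 against 664 and 815, and that of 9 pericyte genes 7453 and 8105 against 8224 and 8498. The blood and neural sums were lower and the endothelial and pericyte sums higher in replicate 2. The epithelial sum was lower in PTIP -/- and almost the same in PTIP +/+. Below the filter level on all 4 arrays were 2 of the blood, 3 of the endothelial, 2 of the epithelial, 2 of the neural and 4 of the pericyte genes. The brightest pericyte gene, Pdgfrb, which fibroblasts also carry, read 4378 and 3884 in replicate 1 and 2766 and 4021 in replicate 2. The brightest blood gene was Csf1r, the macrophage growth factor receptor, at 278 and 277 in replicate 1 and 226 and 218 in replicate 2. The brightest endothelial gene, Egfl7, read 209 and 151 against 136 and 252, and the brightest neural gene, the Schwann and melanocyte factor Sox10, 131 and 143 against 173 and 134. No gene of the endothelial, blood, neural or pericyte lists passed. In the epithelial list Dsp, which encodes the desmosome protein desmoplakin, fell from 884 and 726 to 12.4 and 11, at least 16.8-fold (log2 -6.10, SE 0.20, adjusted p = 0.0394). Epcam read 436 and 356 in replicate 1 and 292 and 220.4 in replicate 2. Its second probe set stayed below the filter level on all 4 arrays, at 8.0 and 2.1 against 6.9 and 8.8, so the Epcam signal is uncertain. Krt19, a keratin, was 4.22-fold higher in replicate 2 (adjusted p = 0.0666) and Krt14, another keratin, was dim at 66.6 and 88.7 against 27.3 and 41.8. In bulk RNA, fewer cells of a type and less RNA per cell cannot be told apart, and the part of other cell types in the differences was not tested.

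Ddx4, an RNA helicase of germ cells, rose from 9 and 4 to 474 and 390.5, at least 9.02-fold (log2 6.16, SE 0.31, adjusted p = 0.0412). The brightest gene of the germ and pluripotent cell list, Dppa5a, read 119.5 and 83.9 in replicate 1 and 75.7 and 63.9 in replicate 2, and 7 of the 12 genes of that list were below the filter level on all 4 arrays. Rgs5, a pericyte regulator of G-protein signalling, read 46.9 and 20.2 against 1451 and 137, with the replicate 2 arrays far apart (adjusted p = 0.108).

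The Y-linked genes were read at like levels on all 4 arrays: Eif2s3y, a translation factor subunit, at 1084 and 1192 in replicate 1 and 1202 and 1064 in replicate 2, and Kdm5d, a histone demethylase, at 392 and 375 against 368 and 369. Uty, a relative of the demethylase Utx, read 331 and 221 against 432 and 286 (adjusted p = 0.337), and Xist, the RNA of the inactive X chromosome, was dim at 115 and 99 against 107 and 121. For Eif2s3y, Uty and Xist the numbers overlap, Kdm5d differed by 1.04-fold on average, and 0 of the 4 genes passed.

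Genes listed as imprinted, of which 1 parental copy is silent in at least some tissues, included some of the largest differences. Whether 1 copy was silent in these cells was not measured. Grb10, an adaptor that restrains insulin and growth factor signalling, rose from 102 and 135 to 10320.4 and 17050.4, 113.0-fold (log2 6.82, SE 0.21, adjusted p = 0.0394). Its dimmer probe sets differed by 4.02 and 1.90, and with all averaged the difference was 4.24 and did not pass (adjusted p = 0.0661). Dcn, which encodes the proteoglycan decorin, fell from 243 and 1266 to 18.7 and 84.5 (log2 -3.80, SE 0.20, adjusted p = 0.0412), at least 5.09-fold in PTIP -/- and 15-fold in PTIP +/+. It no longer passed with signals raised to the filter level (-3.13, adjusted p = 0.0503) or with its probe sets averaged (-2.73, adjusted p = 0.126). Cdkn1c, a cell cycle inhibitor, read 1544 and 2136 in replicate 1 and 69.8 and 22.9 in replicate 2 (adjusted p = 0.0738). Meg3, a long noncoding RNA, was 4.73-fold higher (adjusted p = 0.0738) and Plagl1, a zinc finger factor, 2.38-fold higher (adjusted p = 0.109). Of 19 imprinted genes tested, 1 rose and 1 fell, beside 0.496% and 0.144% of all genes. In both genotypes 3 each were 2-fold higher and lower, beside 4.36% and 3.3%. Of 12 tested genes of antigen presentation, 0 passed; the peptide transporter genes Tap1 and Tap2 were 3.09-fold and 3.58-fold higher (adjusted p = 0.0841 and 0.0738), H2-D1, a class I heavy chain gene, was 2.96-fold higher and H2-T24 at least 2.58-fold lower. Probe sets for class I genes can read several near-identical family members, so the last 2 values are uncertain.

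Genes of the secreted matrix differed in both directions. Among elastic fibre and crosslinking genes, Mfap5, a microfibril protein, rose from 32.3 and 54.3 to 2307 and 8552, 106.1-fold (log2 6.73, SE 0.36, adjusted p = 0.0412), and 13 of the 18 tested genes were higher and 5 lower in replicate 2. Of 31 adhesive glycoproteins tested, 14 were higher and 17 lower with a median of -0.19. Of these, 3 rose and 0 fell, beside 0.496% and 0.144% of all genes: Smoc2, a calcium-binding matrix protein, from 246 and 486 to 8692 and 8713, 25.2-fold (log2 4.65, SE 0.32, adjusted p = 0.0481), Lama5, a laminin chain of basement membranes, from 195 and 184 to 2888 and 2106 (adjusted p = 0.0412), and Tnn, tenascin N, from 9.4 and 35.2 to 155 and 652 (adjusted p = 0.0412). Tnn was named after its values were seen. Npnt, an integrin ligand of basement membranes, was 25.3-fold higher (adjusted p = 0.0565). In the same list Lama2, the laminin chain of muscle and nerve, read 1006 and 1019.9 in replicate 1 and 9.1 and 104 in replicate 2 (adjusted p = 0.126), the opposite direction to Lama5, and passed with signals raised to the filter level (-3.85, adjusted p = 0.0244).

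Non-fibrillar collagens were mostly dimmer in replicate 2. Of 18 tested, 14 were lower and 4 higher. In both genotypes 7 were at least 2-fold lower and 2 at least 2-fold higher, beside 3.3% and 4.36% of all genes. The median difference was -0.96, beside -0.05 for all genes. Col10a1 was the 1 gene of the list to rise, and 0 fell. Col6a3, a chain of the microfibrillar collagen VI, read 15461 and 14125 in replicate 1 and 2161 and 3251 in replicate 2, 5.58-fold lower (adjusted p = 0.0738). Col4a1, the main collagen of basement membranes, was 2.81-fold lower, at 17794 and 17928 against 6404 and 6302 (adjusted p = 0.0903), and Col16a1 4.62-fold lower (adjusted p = 0.0736). The replicate 1 signals of these 3 collagens were above all their replicate 2 signals. Of 10 fibrillar collagens tested, Col11a1 rose and none fell.

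Among small leucine-rich proteoglycans, Ogn, which encodes osteoglycin, rose from 834 and 836 to 7451 and 7933, 9.2-fold (log2 3.20, SE 0.20, adjusted p = 0.0419), opposite to Dcn of the same family. Abi3bp, an extracellular protein of mesenchymal cells, rose by at least 116.0-fold, from 21.8 and 14.6 to 4064 and 7525 (log2 8.28, SE 0.43, adjusted p = 0.0412). Lrrc15, a leucine-rich membrane protein of activated fibroblasts, fell from 4408 and 1304 to 159 and 49.2, 27.1-fold (log2 -4.76, SE 0.20, adjusted p = 0.0412). Of 24 matrix proteases and inhibitors tested, 1 fell and 0 rose: Mmp23, a membrane metalloprotease, from 413 and 435 to 56.8 and 46.5, 8.24-fold (adjusted p = 0.0494). Adamts5, which cuts aggrecan and versican, stood 22.5-fold higher in replicate 2, at 169.8 and 268 against 2456 and 9359 (adjusted p = 0.0614), and Plat, the tissue plasminogen activator, 5.86-fold lower (adjusted p = 0.102). Of 12 integrin chains tested, 0 passed; Itga3, a laminin receptor chain, was 8.37-fold higher and Itga4, a receptor chain for Vcam1 and fibronectin, 8.2-fold lower (adjusted p = 0.0843 and 0.1).

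**Figure D4:**
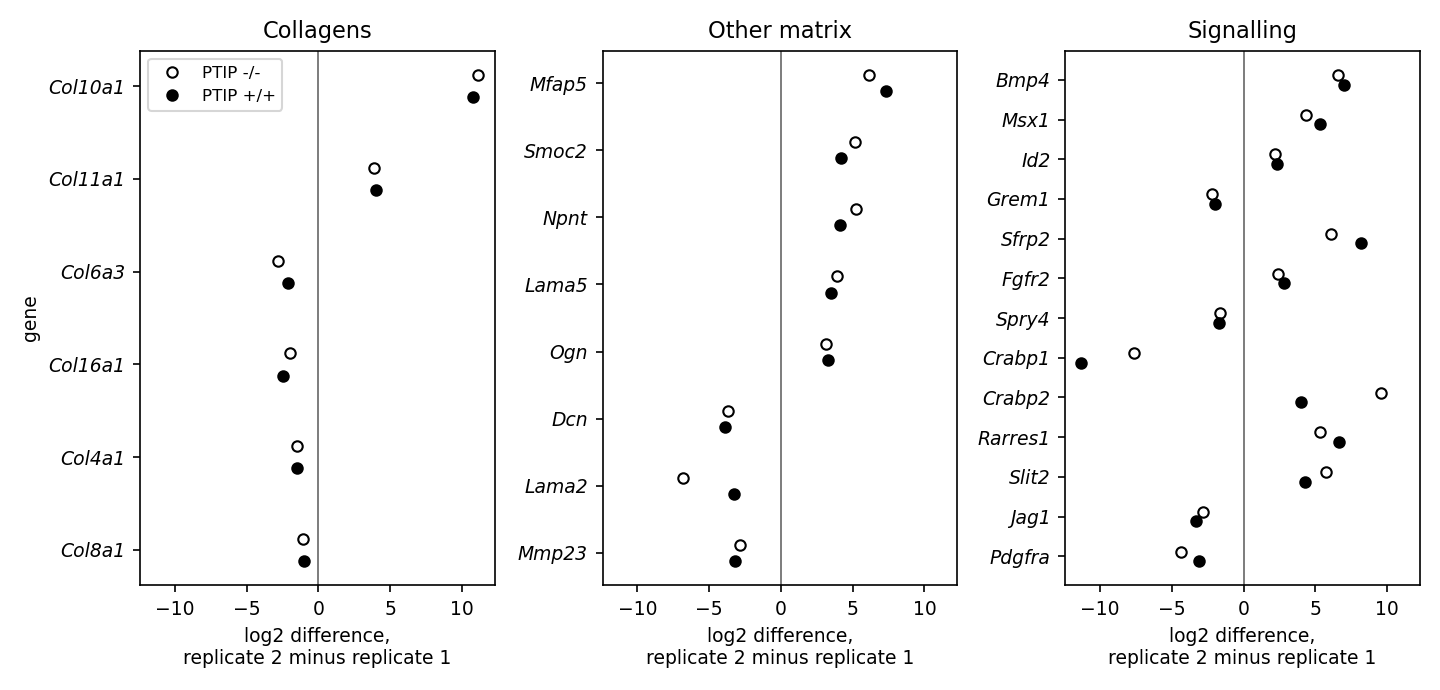
Log2 difference, replicate 2 minus replicate 1, of collagens, other matrix genes and signalling genes, within PTIP -/- (open circles) and within PTIP +/+ (filled circles), each from a single pair of arrays. The 2 genotypes give the same direction for every gene shown. Where a signal lay below the filter level, as for Crabp2, Crabp1 and Lama2, the position of the point is not a measured size.

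BMP signalling genes were mostly brighter in replicate 2. Bmp4, a ligand that patterns limb, face and trunk, read 50.4 and 153 on the replicate 1 arrays and 4839 and 19304 on the replicate 2 arrays. It rose 110.1-fold (log2 difference 6.78, SE 0.22, adjusted p = 0.0394), by 6.59 in PTIP -/- and 6.98 in PTIP +/+ on the log2 scale, with the PTIP +/+ array the brighter in both numbers. Of the receptors, antagonists and targets, Msx1 was the other gene that rose. The target genes Id1 and Id2, which encode inhibitors of differentiation, were 3.21-fold and 4.8-fold higher (adjusted p = 0.0822 and 0.0614), Id2 from 609.8 and 478 to 2805 and 2389. Of the secreted antagonists, Fst, follistatin, was higher, at 47.4 and 147 in replicate 1 and 225 and 5199 in replicate 2 (adjusted p = 0.143), and Grem1, gremlin, lower, at 1672 and 6098 against 371 and 1566 (adjusted p = 0.0703). Grem1 was 4.19-fold lower on average, and its highest replicate 2 signal, in the PTIP +/+ array, lay just below its lowest replicate 1 signal. In all, 18 of 22 tested genes were higher and 4 lower, where 53.8% of all tested genes were lower. Of the 22, 2 rose and 0 fell, beside 0.496% and 0.144% of all genes, 8 were at least 2-fold higher and 1 at least 2-fold lower in both genotypes, beside 4.36% and 3.3%, and the median difference was 0.87.

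Retinoic acid genes were mostly brighter in replicate 2, but Crabp1 was far dimmer. Crabp1, a cytoplasmic retinoic acid binding protein, read 1927 and 9881 in replicate 1 and 9.8 and 3.9 in replicate 2, at least 91.5-fold lower. Its difference was -7.62 in PTIP -/- and -11.31 in PTIP +/+ on the log2 scale, and it did not pass (mean -9.46, SE 1, adjusted p = 0.0738). Both replicate 2 signals lay below the filter level, and with signals raised to it the difference was -6.52 and passed (adjusted p = 0.0268). Its relative Crabp2, a retinoic acid carrier to the nuclear receptors, went the other way, from 3.4 and 51.4 to 2615 and 817, also without passing (adjusted p = 0.147), but it passed with raised signals (4.88, adjusted p = 0.0285). Rarres1, a gene named for its response to retinoids, rose from 5.6 and 52.4 to 225 and 5199.8 (log2 5.98, SE 0.40, adjusted p = 0.0462), at least 4.71-fold in PTIP -/- and 99.2-fold in PTIP +/+. With signals raised to the filter level its difference was 4.43 and it no longer passed (adjusted p = 0.119). Rdh10, an enzyme of retinoic acid synthesis, was 5.06-fold higher (adjusted p = 0.099). Of 13 tested genes, 10 were higher and 3 lower, with a median of 1.05; 1 rose and 0 fell.

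Wnt and FGF genes differed singly. Sfrp2, a secreted Wnt antagonist, read 38.3 and 50 in replicate 1 and 2636 and 14872 in replicate 2 (log2 7.16, SE 0.59, adjusted p = 0.059). The Wnt amplifiers Rspo2 and Rspo3 were also brighter, Rspo3 from 26 and 8.8 to 269.9 and 1658 (adjusted p = 0.136) and Rspo2 by 3.64-fold (adjusted p = 0.101). Fzd4, a Wnt and norrin receptor, was 6.31-fold higher (adjusted p = 0.0591), while Dkk3 and Nkd2, a secreted and an intracellular modulator, were 4.74-fold and 8.87-fold lower (adjusted p = 0.0774 and 0.0968). Of 29 Wnt genes tested 0 passed, and their median of 0.38 was -0.29 within PTIP -/- and 0.62 within PTIP +/+. Fgfr2, an FGF receptor of limb, skin and skull, was 6.16-fold higher, at 508 and 765 in replicate 1 and 2682 and 5505 in replicate 2 (adjusted p = 0.0614). In contrast the FGF feedback genes Spry1, Spry4, Dusp6 and Etv4 were 4.03-fold, 3.15-fold, 5.02-fold and 8.52-fold lower, with adjusted p from 0.0821 to 0.172. Of 17 FGF genes tested 0 passed, and their median of 0.16 was -0.27 within PTIP -/- and 0.22 within PTIP +/+.

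Guidance cues, receptors and other ligands differed gene by gene. Sema3b, a secreted semaphorin, rose from 15 and 16.7 to 254 and 449.8, at least 7.1-fold (log2 4.42, SE 0.26, adjusted p = 0.0412). Slit2, a ligand of Robo receptors, read 185 and 714 in replicate 1 and 9974 and 13857 in replicate 2, 32.4-fold higher (adjusted p = 0.0614). Jag1, a Notch ligand, was 8.29-fold lower, at 3162 and 3155 against 455 and 319 (adjusted p = 0.0565). Of the growth factors, Pdgfd and Bdnf were 6.98-fold and 3.29-fold higher (adjusted p = 0.133 and 0.0821), and Vegfd and Hbegf 5.1-fold and 2.79-fold lower (adjusted p = 0.107 and 0.0992). Igfbp2, which binds insulin-like growth factors outside the cell, was 3.16-fold higher, at 1395 and 5409.9 against 3363 and 22426 (adjusted p = 0.117), and its numbers overlap. Among 31 growth factor and receptor genes tested, 0 passed, 21 were lower and 10 higher, with a median of -0.41. Of 11 hedgehog genes tested, 0 passed and 0 were 2-fold different in both genotypes, and Shh itself, the ligand of the posterior limb, read 85 and 130.5 against 47.7 and 66.6.

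Genes of cell state also differed. In the list of p53 targets and cell cycle brakes, Trp53inp1, which p53 induces, rose from 146 and 39.3 to 3689 and 945, 24.7-fold (log2 4.62, SE 0.20, adjusted p = 0.0412). Cdkn1a, the p21 inhibitor, was 5.06-fold higher, at 729.8 and 955 in replicate 1 and 6258 and 2849.8 in replicate 2 (adjusted p = 0.127), Ccng1 4.05-fold higher (adjusted p = 0.0841) and Pmaip1, a cell death inducer, 7.5-fold higher (adjusted p = 0.146). Cdkn2a, the INK4a/ARF locus that immortalized mouse fibroblasts often lose, read 2064 and 1563 in replicate 1 and 609 and 52.1 in replicate 2 (adjusted p = 0.169). Only the PTIP +/+ replicate 2 array was close to the filter level for Cdkn2a. Of 24 tested, 18 were higher and 6 lower, 1 rose and 0 fell, with a median of 0.46.

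The remaining state lists held few genes that passed. Genes of DNA replication and mitosis had medians of -0.29 and -0.13, which were -0.58 and -0.47 within PTIP -/- but 0.04 and 0.34 within PTIP +/+; that of mitosis became 0.06 with arrays centred on their medians, and 0 of the 25 and 21 tested genes passed. Of 20 glycolysis and hypoxia genes tested, 17 were lower and 3 higher with a median of -0.65, among them Vegfa, 2.2-fold lower (adjusted p = 0.117), and Pfkp, a glycolytic enzyme, 2.07-fold lower (adjusted p = 0.125). Of 20 genes of cholesterol and fatty acid synthesis, 18 were higher and 2 lower with a median of 0.38, which was 0.03 within PTIP -/- and 0.93 within PTIP +/+. In the glutathione and antioxidant list Sod3, an extracellular superoxide dismutase, rose from 12 and 8.2 to 466 and 225, at least 6.79-fold (log2 5.03, SE 0.24, adjusted p = 0.0412), and Mgst1, a microsomal glutathione transferase, from 40.9 and 24.1 to 509 and 298 (adjusted p = 0.0412). Of the 21 genes of that list tested, 9 were higher and 12 lower, with a median of -0.06. In both genotypes, 3 were at least 2-fold higher and 2 at least 2-fold lower, beside 4.36% and 3.3% of all genes.

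Outside the lists, 53 further genes passed, among them Abi3bp and Lrrc15, described above, and the genes that follow. Cyba, a subunit of the NADPH oxidase that makes superoxide, rose from 6.6 and 6.1 to 4853 and 3870.0, at least 90.9-fold (log2 9.42, SE 0.20, adjusted p = 0.027). Cd24a, a small surface glycoprotein of immature and epithelial cells, rose from 56.6 and 30.5 to 6151 and 8510.1, 174.1-fold (log2 7.44, SE 0.41, adjusted p = 0.0412). Ecrg4, a secreted peptide precursor, rose at least 40.8-fold, Rab3b, a small GTPase of secretion, at least 27.5-fold, Adgrg2, an adhesion G-protein receptor, 37-fold, and Ptprd, a receptor tyrosine phosphatase, at least 28.1-fold. On the other side Ptprz1, a receptor phosphatase of glia, fell from 5064 and 2216 to 98.3 and 32.5, 59.3-fold (log2 -5.89, SE 0.22, adjusted p = 0.0412). Mab21l1, a gene of eye and face development, fell 14.1-fold in PTIP -/- and at least 10.8-fold in PTIP +/+, Il18rap, a chain of an interleukin receptor, fell 16.1-fold, Medag, a gene of fat cell formation, 11.1-fold, and Akap12, a kinase scaffold, 7.68-fold, from 7791 and 8411 to 1007 and 1103. Susd5, Ctla2b, Rgs17 and Epb41l4a also fell, by at least 5.7-fold, at least 21-fold, 7.57-fold and 7.12-fold. Of all 80 genes, 26 that rose and 7 that fell had both arrays of the dimmer number below the filter level, so that their fold is a lower bound.

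Other probe sets of the named genes mostly repeated these directions. Of the 164 named genes with a mean difference of 2-fold or more, 102 had other probe sets above the filter level, and 175 of these 179 probe sets differed in the same direction as the brightest one. The opposite direction was read by 1 probe set each of Adamts9, Fgf13, Kitl and Plxnc1. When the probe sets of a gene were averaged instead, 6 of 38 named genes no longer passed in limma: Dcn, Grb10, Hoxa10 and Msx1, as given above, Mab21l1 (-4.58, adjusted p = 0.069) and Rgs17 (-2.48, adjusted p = 0.0526). For Mfap5, Mmp23, Trp53inp1, Cd24a, Ptprz1, Medag, Itga4 and Etv4, 1 of the 2 arrays of the dimmer number lay below the filter level, and their folds use the measured signals.

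Read along the chromosomes, in the gene order of RefSeq assembly GRCm38.p6, small differences ran the same way over long stretches. This view was chosen after values were seen. It places 12477 tested genes on 20 chromosomes in 242 blocks of about 50 genes. On chromosome 10, 78.7% of 619 genes were lower in replicate 2 (53.8% of all genes), the median difference was -0.46, and all 12 blocks had a median below 0, from -0.55 to -0.23. On chromosome 14, 75.9% of 428 genes were higher, the median was 0.44, and all 8 blocks lay above 0, from 0.28 to 0.53. Both genotypes gave these values separately, -0.45 and -0.45 on chromosome 10 and 0.42 (PTIP -/-) and 0.47 (PTIP +/+) on chromosome 14. As a fold, the medians are 0.73 and 1.36 times the replicate 1 level. Restricted to genes that differed by less than 2-fold within each genotype, the medians were -0.35 and 0.32.

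Chromosome 4 changed sign along its length, at a point placed after its values were seen. The first 5 blocks (257 genes) had medians from 0.10 to 0.37 and the remaining 10 blocks (510 genes), beginning with the block that holds Cdkn2a, from -0.36 to -0.09. On chromosome 7 the median was 0.14 and 16 of 19 blocks lay above 0. Blocks of mostly the same sign were not confined to these chromosomes. On chromosome 11, 17 of 20 blocks lay above 0, and on chromosome 1, 11 of 14. Every block of chromosome 13 lay below 0, with medians from -0.38 to -0.02. The medians of the other 17 chromosomes, counted whole and without 7, 10 and 14, lay between -0.15 and 0.11. Over the settings tried, the median of chromosome 10 ran from -0.49 to -0.27 and that of chromosome 14 from 0.43 to 0.63. Single genes need not follow these medians: Col10a1, on chromosome 10, rose. What lies behind these runs was not tested.

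**Figure D5:**
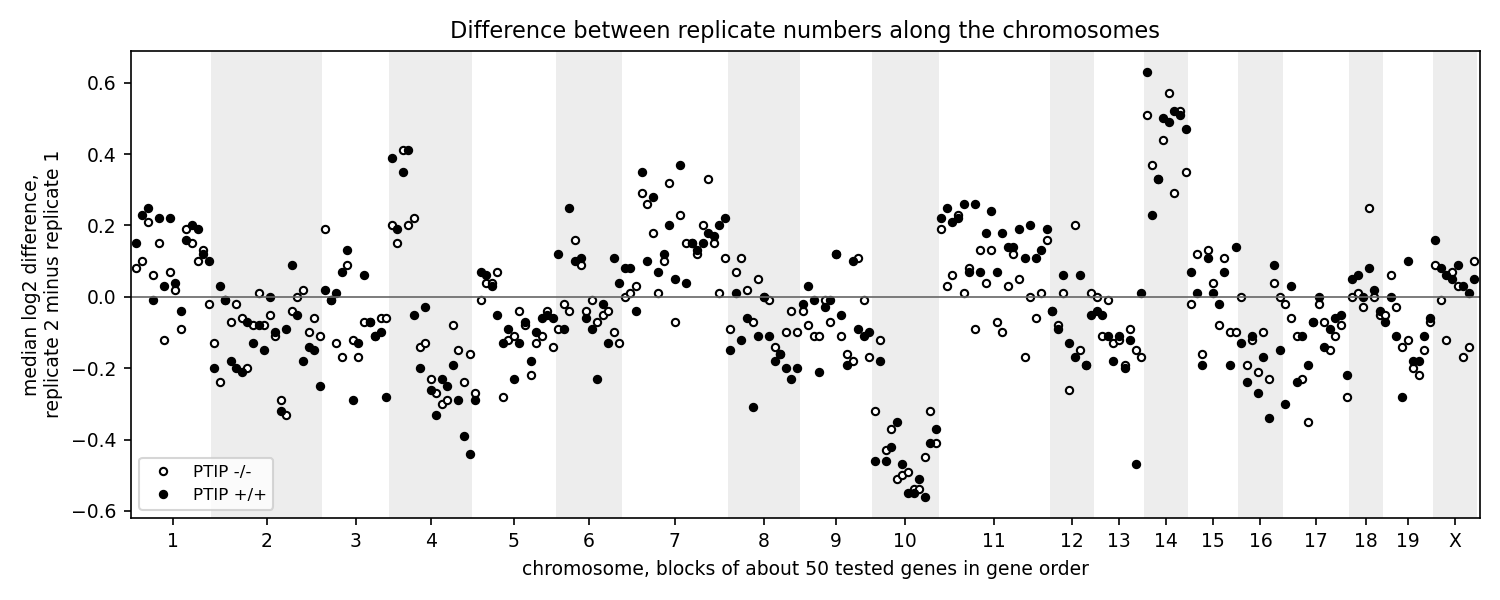
Each point is the median log2 difference, replicate 2 minus replicate 1, of a block of about 50 neighbouring tested genes, in gene order along chromosomes 1 to 19 and X, within PTIP -/- (open circles) and within PTIP +/+ (filled circles). All blocks of chromosome 10 lie below 0 and all of chromosome 14 above 0 in both genotypes, and chromosome 4 passes from above 0 to below 0.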

How the data were processed

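RNA of 4 samples was read on Affymetrix arrays. RMA (no version) is named in the submitters' processing notes, but the deposited values are linear intensities whose mean, trimmed by 2% at each end, is the same on every array. How background was corrected is not given in these sources. Control probe sets (64) and those with several symbols (932) or none (9160) were left out of the 45101, and 34945 kept, 34741 of their symbols updated from RefSeq GRCm38.p6. Intensities were taken to log2 after 1 zero was set to 0.1. A gene's brightest probe set stood for it, and genes were tested where its mean log2 signal reached the 40th percentile of all probe sets (12509 genes, 5684 below). The fit was lmFit and eBayes in limma 3.58.1 (R 4.3.3), with terms for genotype and replicate number, prior degrees of freedom 2.57 and prior SD 0.23. It was also run on simulated data, with variances drawn from that prior and the same planted difference in both genotypes. That run does not cover variances that change with signal, or differences unequal between the genotypes. A fold is "at least" where both arrays of the dimmer number lay below the filter level, to which they were then raised. Where only 1 of them did, log2 differences use the measured signals. A list's counts cover its tested members: 50 lists hold 966 genes, 890 on the array and 684 tested, of which 21 rose and 6 fell. The named genes are the 6 markers, up to 15 per direction with the largest difference alike in both genotypes among those that passed (no clone names), up to 6 members per list at least 2-fold different in both genotypes or otherwise the largest, all Hox and sex-linked genes, and the brightest member of each cell type list. Members and lists were chosen with earlier results of these data known. The alternatives were other scalings, filters, moderation, probe-set rules and fold thresholds, no genotype block, and each array left out.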

Additional observations from a re-analysis of the deposited data

Results flagged for a closer look

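The difference between the replicate numbers ran in opposite directions in the 2 genotypes for the gene and lists that follow, each from a single pair of arrays per genotype, so that the difference between the genotypes was not tested. Values are log2 differences, replicate 2 minus replicate 1. Hoxb4, the 1 tested HoxB gene and thus the median of that cluster, was -1.21 in PTIP -/- and 1.01 in PTIP +/+. Among the lists of cell types and positions, the median was -0.09 in PTIP -/- and 0.10 in PTIP +/+ for body wall, splanchnic and kidney factors, -0.21 and 0.45 for bone, 0.02 and -0.08 for smooth muscle, -0.54 and 0.77 for endothelium and -0.58 and 0.20 for epithelium. Among matrix and signalling lists it was 0.11 in PTIP -/- and -0.38 in PTIP +/+ for integrin chains, 0.42 and -0.10 for TGF-beta and activin, -0.29 and 0.62 for Wnt, -0.27 and 0.22 for FGF, -0.06 and 0.33 for hedgehog, -0.27 and 0.12 for Notch and 0.06 and -0.10 for insulin-like growth factor genes. Among cell state lists it was 0.69 and -0.06 for interferon-stimulated genes, -0.58 and 0.04 for DNA replication and -0.47 and 0.34 for mitosis. The median over all genes was -0.05.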

How the results depend on the processing

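The number of genes that rose in replicate 2 was 62, and the number that fell was 18. These became 149 and 49 with quantile normalization, 174 and 41 with arrays centred on their medians, 0 and 0 with no filter on low signals (1120 and 1281 at an unadjusted p under 0.05 in limma), 225 and 126 with a filter at the 60th percentile, 558 and 335 with a variance trend and robust moderation, 0 and 0 with no moderation (652 and 587 at an unadjusted p under 0.05), and 237 and 128 with signals raised to the filter level. All 80 genes were shared with quantile normalization and with the trend, and 73 with raised signals. With no genotype block there were 61 and 21, 50 of them shared. Without 1 array at a time, and with no genotype block because a genotype term leaves no residual degree of freedom, the numbers ran from 0 to 38 that rose and from 0 to 47 that fell, the lone array being assumed to vary like the others. No calls were left without either replicate 1 array or without the PTIP +/+ replicate 2 array (681 to 1286 higher and 558 to 1170 lower at an unadjusted p under 0.05), and only without the PTIP -/- replicate 2 array were there 38 and 47. Genes at least 2-fold higher in both genotypes numbered 546, and 849 with no filter, 895 over every probe set, 1156 at 1.5-fold and 196 at 4-fold. Those at least 2-fold lower numbered 413, and 272 with centred arrays, 980 with no filter, 253 with the 60th percentile, 779 over every probe set, 1110 at 1.5-fold and 104 at 4-fold. Centring moved the median of all genes from -0.05 to 0.14, and with it the sign of the list medians of HoxB, endothelial, fibroblast surface, Notch, chemokine, mitosis and glutathione genes, and quantile normalization that of the HoxB and endothelial ones. Averaging the probe sets of a gene turned the sign of 9 list medians, from 0.26 to -0.09 for body wall factors, -0.42 to 0.06 for fat cell, -0.02 to 0.17 for endothelium, -0.41 to 0.16 for epithelium, 0.04 to -0.39 for sex-linked genes, 0.10 to -0.28 for imprinted genes, 0.27 to -0.03 for fibrillar collagens, 0.27 to -0.08 for hedgehog and 0.32 to -0.09 for axon guidance. No paired analysis was possible because the number that would pair the genotypes is itself compared here, and the fit already sets replicate 2 against replicate 1 within each genotype. Signals below 47.68 carry no order, and 4 arrays limit every value.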

Other observations

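Some genes that passed belong to no list and were not named by the rule; those given here were chosen after their values were seen. Esr1, the oestrogen receptor, rose in replicate 2 from 20.6 and 19.7 to 286 and 236 (at least 5.44-fold; log2 3.69, SE 0.20), and Maf, a leucine zipper factor, from 95.5 and 74.2 to 2172 and 1102 (18.4-fold; log2 4.20, SE 0.25). Npr3, the clearance receptor of natriuretic peptides, rose from 93.6 and 252 to 863 and 2309.7 (9.2-fold). Atoh8, a basic helix-loop-helix factor, rose at least 8.56-fold in PTIP -/- and 10.8-fold in PTIP +/+, and Ahrr, the repressor of the aryl hydrocarbon receptor, at least 7.03-fold. Mgmt, the enzyme that repairs alkylated guanine in DNA, rose from 23.3 and 13.5 to 233 and 128, at least 3.63-fold (limma, adjusted p = 0.0412). Its replicate 1 signals lay below the filter level on both arrays.

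Genes of complement, proteolysis and metabolism were among those that rose: C1s1, a complement protease, from 36.9 and 61.7 to 1163 and 1166, Ctsc, a lysosomal protease that activates granule enzymes, from 85.6 and 53.6 to 1285 and 1549.8, and Cbr2, a carbonyl reductase, from 218 and 358 to 3587 and 4974. Fstl3, a secreted activin antagonist outside the lists, rose from 117 and 21.3 to 1175 and 342 (10-fold in PTIP -/- and at least 7.16-fold in PTIP +/+; log2 3.67, SE 0.27). Gpc1, a heparan sulfate proteoglycan of the cell surface, rose from 90.8 and 109.8 to 1523 and 2502.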
